A study of Mus musculus with 5 samples.

Results

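The 9 genes described here handle iron in hepatocytes: the hepcidin genes Hamp and Hamp2, the carrier gene Trf, the uptake and sensing genes Tfrc, Tfr2 and Hfe, the storage genes Fth1 and Ftl1, and the export gene Slc40a1. They were taken by symbol from the 32285 genes of a droplet single-cell RNA count table, and all 9 were found. The samples were 5 libraries of total hepatocytes isolated from male C57BL/6J mice, wild type and kept on chow. The mice had been trained for 3 days to eat in an 8 h daytime window after a 16 h overnight fast, and on the day of the experiment food came with 20% sucrose water. The fed library was taken after 4 h of feeding, at clock hour 13. Food and sucrose were then removed, and libraries of fasted mice followed after 4, 8, 16 and 24 h, at clock hours 17, 21, 5 and 13. Hours of fasting and clock hour therefore cannot be told apart, except that the 24 h and fed libraries share a clock hour. Each time is 1 library, the number of animals behind it is not given in the sources used here, and no test between times was possible. The intervals below cover counting error only.

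Hepcidin is a peptide hormone that the liver releases when iron is plentiful or when inflammation is under way; it binds the exporter ferroportin, encoded by Slc40a1, and causes its removal from the cell surface. Hepcidin transcription is known to respond to BMP signals through SMAD proteins and to IL-6 through STAT3, while HFE and transferrin receptor 2 act as sensors of transferrin-bound iron. Ferritin shells store iron inside the cell. Iron regulatory proteins bind a stem-loop in several of these messenger RNAs when the cell is short of iron: bound near the start, the loop blocks translation, and bound near the end, it protects the messenger RNA from decay.

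The promoters of the hepcidin genes are shown because these near copies lie side by side on chromosome 7 and their levels differed between libraries in unlike ways. Hamp spans 30942368 to 30944032 and Hamp2 spans 30922372 to 30924681, both on the minus strand of GRCm38 in GENCODE M21. The 250 bases before each RefSeq start, on GRCm38.p6, are given 5′ to 3′ on the gene's strand. They cover chr7:30944030-30944279 for Hamp and chr7:30924182-30924431 for Hamp2; the Hamp2 window lies inside the GENCODE gene, whose annotated start is further upstream. Capitals mark every match, on either strand, to GGCGCC, the core of the BMP-responsive element, and to TTCNNNGAA, a spaced palindrome that STAT proteins bind.
Hamp: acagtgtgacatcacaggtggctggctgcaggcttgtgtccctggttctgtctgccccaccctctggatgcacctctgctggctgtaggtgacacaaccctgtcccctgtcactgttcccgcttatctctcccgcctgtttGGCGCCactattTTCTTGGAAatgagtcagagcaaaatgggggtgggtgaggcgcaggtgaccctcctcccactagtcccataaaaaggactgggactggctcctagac
Hamp2: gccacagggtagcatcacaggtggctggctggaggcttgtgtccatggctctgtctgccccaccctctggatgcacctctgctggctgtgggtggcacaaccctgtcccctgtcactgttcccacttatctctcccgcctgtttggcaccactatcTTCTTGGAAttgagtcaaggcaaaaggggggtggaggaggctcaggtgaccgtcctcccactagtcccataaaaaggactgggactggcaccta
The Hamp window held GGCGCC from 109 to 104 bases before the start and TTCTTGGAA from 97 to 89 bases before it. The matches do not overlap. The Hamp2 window held TTCTTGGAA from 94 to 86 bases before its start and no GGCGCC; the aligned bases read GGCACC, the change G4A counted from the 5′ end of the element. The windows were identical at 227 of 253 aligned positions. Of the 32851 promoter windows in the table, 9.59% held GGCGCC and 7.02% held TTCNNNGAA. Of the other members with an entry, 1 of the 2 Tfrc windows held GGCGCC, and neither element was found in the windows of Tfr2, Fth1, Ftl1 or Hfe.

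Stem-loops of the kind iron regulatory proteins bind are shown for the members that hold one, because they sort the members into those with a loop near the start and the one with loops near the end. The search looked on the transcript strand of GENCODE M21 for CNNNNNCAGTGN in which the last base is not G and the 5 bases before CAGTG pair with the 5 bases after the loop. In each line the first capital is the bulged C and the later capitals are the loop.
Fth1, 5′ untranslated region: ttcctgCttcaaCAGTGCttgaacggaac
Ftl1, 5′ untranslated region: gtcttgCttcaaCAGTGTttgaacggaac
Slc40a1, 5′ untranslated region: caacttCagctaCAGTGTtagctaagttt
Tfrc, 3′ untranslated region, loop 1: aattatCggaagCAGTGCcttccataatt
Tfrc, 3′ untranslated region, loop 2: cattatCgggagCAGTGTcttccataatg
Tfrc, 3′ untranslated region, loop 3: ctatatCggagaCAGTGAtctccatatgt
Tfrc, 3′ untranslated region, loop 4: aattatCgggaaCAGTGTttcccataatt
Such a loop was found in the 5′ untranslated region of 0.110% of 20916 protein-coding genes and in the 3′ untranslated region of 0.475% of 21039. No match was found for Hamp, Hamp2, Trf, Tfr2 or Hfe in either region. Fth1 lies on chromosome 19 (9980598 to 9985098), Ftl1 on chromosome 7 (45457944 to 45459884), Slc40a1 on chromosome 1 (45908068 to 45926523) and Tfrc on chromosome 16 (32608920 to 32632794).

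Hepatocytes were barcodes with 1000 or more UMIs, 500 or more genes and 2 to 30% mitochondrial UMIs, less 8 to 200 barcodes per library that carried markers of another cell type. This left 7626, 4559, 2704, 9077 and 4549 hepatocytes at 0, 4, 8, 16 and 24 h, with 33461812 to 45503295 non-mitochondrial UMIs per library. Median UMIs per hepatocyte ran from 4406 at 16 h to 15060.0 at 8 h. Hepatocyte markers fit the label: Alb alone stood between 50365 and 82878 CPM, UMIs of a gene scaled to a total of 1e+06. Each of the 10 endothelial and 10 macrophage markers stayed at or below 3.42 CPM in every library. These low values follow in part from the removal of barcodes by the same markers, so they are no separate check of the label. In the 5 libraries 259 barcode sequences occurred more than once, 73 of them among hepatocytes. Barcodes under 2% mitochondrial UMIs, which the rule leaves out, made up 20.5, 53.5, 17.1, 2.39 and 53.8% of those passing the other limits at 0, 4, 8, 16 and 24 h. Levels below are CPM of non-mitochondrial UMIs summed over hepatocytes; since UMIs count 3′ ends, levels are compared within a gene and not between genes.

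Hamp, the main hepcidin gene, was highest in the fed library and below it at every fasted time. The fed library had 769 CPM, and the libraries of 4, 8, 16 and 24 h had 496, 611, 492 and 617. The log2 ratios to fed were -0.63 (95% counting interval -0.66 to -0.61), -0.33 (-0.36 to -0.31), -0.64 (-0.67 to -0.62) and -0.32 (-0.34 to -0.29). Summed over all hepatocytes, no fasted library reached a 2-fold difference, though single bins of the axis described below did. The intervals of 4 h and 16 h overlapped, as did those of 8 h and 24 h. The level at 4 h depended on which barcodes counted: with 2 to 15% mitochondrial UMIs its log2 ratio to fed was 0.13. With the mean of per-cell CPM the 8 h ratio was -0.80, nearer to 16 h (-0.84) than to 24 h (-0.28), so which libraries lay close together also depended on the summary. Among the libraries of the same clock hour, the 24 h value came to -0.07 once 10% of the profile of barcodes under 1% mitochondrial UMIs was subtracted.

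Hamp2, the second hepcidin gene of the mouse, covered a wider range than Hamp. The fed library had 73.3 CPM, and the fasted ones had 42.7, 19.2, 36.6 and 93.7 in order of time. The lowest library was 8 h, with a log2 ratio to fed of -1.94 (-2.06 to -1.81), and the 24 h library was the one above fed, at 0.35 (0.28 to 0.43). At 16 h the ratio, -1.001 (-1.10 to -0.90), lay on the 2-fold line. With 2 to 15% mitochondrial UMIs the 4 h ratio went from -0.78 to -0.18 and the 16 h ratio to -1.45. Per 100 Hamp UMIs there were 9.54 Hamp2 UMIs in the fed library, then 8.62, 3.14, 7.45 and 15.2. The Hamp and Hamp2 transcripts were identical at 88.8% of aligned positions, and 37.8% of the 25-base stretches of Hamp2 also occur in Hamp, so a part of the UMIs of either gene could belong to the other.

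Trf, which encodes the plasma iron carrier transferrin, had the narrowest range of the 9 genes over the libraries. It stood at 13205, 11806, 11841, 10442 and 10549 CPM at 0, 4, 8, 16 and 24 h. All 4 fasted libraries were below fed, with log2 ratios of -0.16, -0.16, -0.34 and -0.32, each interval within 0.01 of its value. Alternative settings moved these ratios by far more. They ran from -0.39 to -0.05 at 4 h and from -0.24 to -0.003 at 8 h. At 16 h and 24 h the ranges were -0.41 to -0.24 and -0.59 to -0.21.

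Tfrc, which encodes transferrin receptor 1, had the largest difference from fed of the 9 genes at 4 h, 8 h, 16 h and 24 h, except that Fth1 had a larger one at 24 h with TMM scaling (1.11 against -1.10) and median-of-ratios scaling (1.14 against -1.08). Its levels were 68.8, 25.6, 13.6, 22.7 and 30.04 CPM at 0, 4, 8, 16 and 24 h. Log2 ratios to fed were -1.43 (-1.53 to -1.32), -2.34 (-2.49 to -2.20), -1.60 (-1.72 to -1.48) and -1.20 (-1.30 to -1.09). All 4 fasted libraries lay more than 2-fold below fed, and they did so in each of the 12 alternative settings that recomputed the ratio. Tfr2, the gene of the second transferrin receptor and an iron sensor of hepatocytes, differed in the other direction: 192 CPM fed, then 289, 298, 265 and 279. Its log2 ratios were 0.59 (0.54 to 0.63), 0.63 (0.59 to 0.67), 0.46 (0.42 to 0.51) and 0.54 (0.49 to 0.58). The fasted libraries lay above the fed one, and the Poisson intervals of the levels at 24 h and 4 h, and at 4 h and 8 h, overlapped. The Tfr2 ratio depended on the barcodes counted at 4 h, where it was 0.13 with 2 to 15% mitochondrial UMIs, and at 24 h, where it was 0.13 with no lower mitochondrial limit. Per 100 Tfr2 UMIs there were 35.8 Tfrc UMIs fed against 8.87, 4.56, 8.58 and 10.8 in the fasted libraries. Hfe, whose protein pairs with the transferrin receptors, stood at 30.9, 37.7, 32.1, 29.0 and 26.7 CPM. Its interval against fed included 0 at 8 h and 16 h.

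In the hepatocytes defined above, the ferritin genes kept the same order of libraries and set the 16 h library apart. With no lower mitochondrial limit Ftl1 was instead higher at 4 h than at 8 h, while Fth1 kept its order. Fth1, the heavy chain that oxidises iron, stood at 3716, 5613, 5906, 2983 and 7520.0 CPM. Ftl1, the light chain, stood at 3987, 5808, 6105, 2028 and 7376 CPM. Both were above fed at 4, 8 and 24 h and below it at 16 h. Log2 ratios to fed were 0.60, 0.67, -0.32 and 1.02 for Fth1 and 0.54, 0.61, -0.97 and 0.89 for Ftl1. Over 12 alternative settings the 8 h ratio ran from 0.22 to 0.82 for Fth1 and from 0.35 to 0.77 for Ftl1. At 4 h these ranges were 0.53 to 0.82 and 0.48 to 0.95. Fth1 per 100 Ftl1 UMIs was 93.2, 96.6, 96.7, 147 and 102, so 16 h was also the library in which the chains diverged. The listed pseudogene Ftl1-ps1, identical to Ftl1 at 91.0% of aligned positions, was counted at 90.4, 39.7, 25.5, 58.2 and 56.3 CPM and could hold some Ftl1 UMIs. Slc40a1, the exporter gene, had another order: 162, 148, 135, 303 and 206 CPM. It was highest at 16 h, where its log2 ratio to fed was 0.90 (0.86 to 0.95), and lowest at 8 h, at -0.27 (-0.32 to -0.21). With 2 to 15% mitochondrial UMIs the 4 h ratio went from -0.13 to -0.78, below that of 8 h, and with no lower limit the 24 h ratio went from 0.35 to 0.02. Of the members with a 5′ loop, Fth1 and Ftl1 were thus below fed at 16 h while Slc40a1 was above it.

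**Figure D1:**
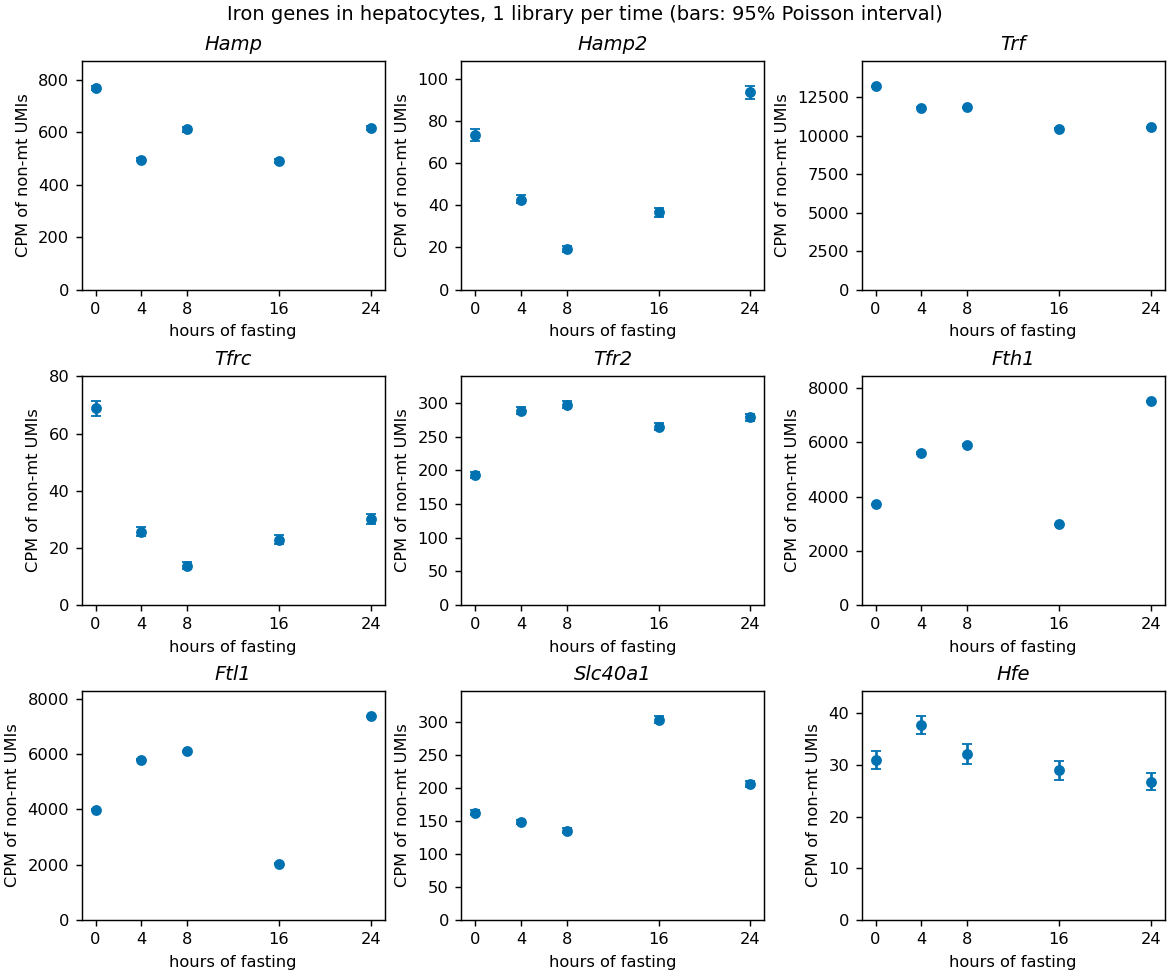
Level of each of the 9 genes (CPM of non-mitochondrial UMIs, y axis from 0) against hours of fasting (x axis), 1 point per library with its 95% Poisson interval. Tfrc stands at 68.8 CPM fed and 13.6 at 8 h, Tfr2 is higher in each fasted library, and the 16 h library is lowest for Fth1 and Ftl1 and highest for Slc40a1.

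A gene was counted as higher or lower than fed when its CPM differed at least 2-fold and reached 10 CPM in either library, which all 9 members did. At 4 h no member was higher and Tfrc was lower, where 3.81% of 7261 genes were higher and 5.8% lower. At 8 h Tfrc and Hamp2 were lower and none was higher, where 5.82% of genes were higher and 11% lower. At 16 h the same 2 genes were lower and none was higher, where 3.02% of genes were higher and 3.5% lower. At 24 h Fth1 was higher and Tfrc lower, where 4.89% of genes were higher and 8.57% lower. Fth1 lay on the 2-fold line there, with a log2 ratio of 1.02 that went down to 0.94 in the alternative settings. With 9 members, 1 or 2 genes past the line is a small number on which nothing about the set can rest. All 4 comparisons share the fed library. Over all genes the balance of directions depended on scaling: with TMM, 355 genes were higher and 313 lower at 4 h (277 and 421 without it), 604 and 604 at 8 h (428 and 808), and 441 and 521 at 24 h (358 and 627).

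**Figure D2:**
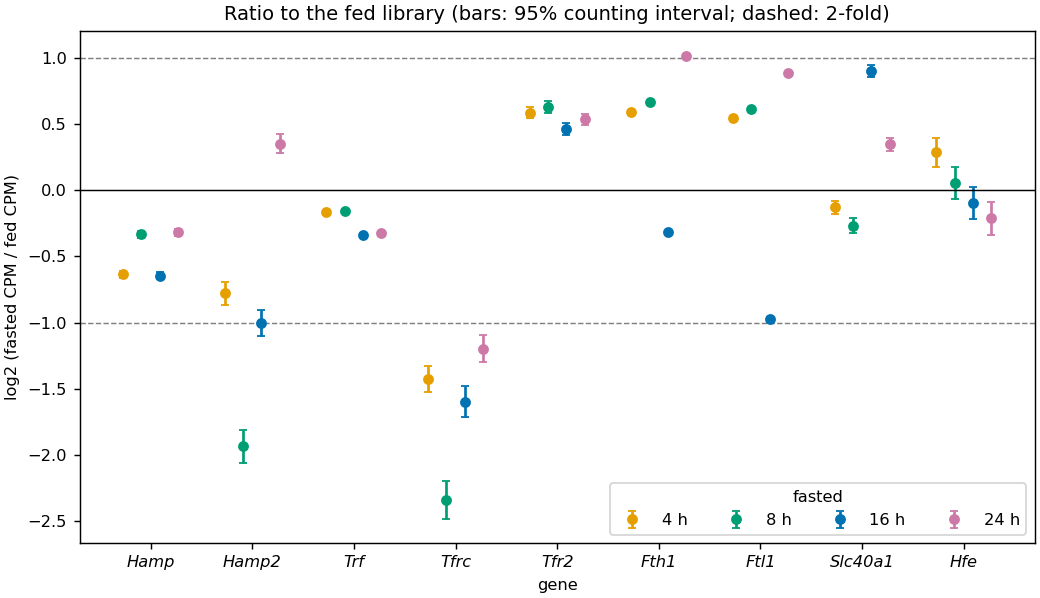
Log2 ratio of fasted to fed CPM (y axis) for the 9 genes (x axis), colour showing hours of fasting, bars the 95% counting interval and dashed lines a 2-fold difference. Tfrc lies under the lower line at all 4 times, from -1.20 to -2.34, and Hamp lies between -0.64 and -0.32.

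Levels depended on the kind of barcode, which bears on each comparison above. In barcodes under 2% mitochondrial UMIs, Hamp stood at 2094, 1230.2, 1327, 1739 and 847 CPM at 0, 4, 8, 16 and 24 h, above the hepatocytes of each library. Fth1 and Ftl1 were also higher there in all 5 libraries, and Trf, Tfrc, Tfr2 and Slc40a1 were lower in all 5. Among hepatocytes of 1000 to 3000 UMIs, Hamp stood at 1536 CPM fed against 698 at 3000 to 10000 UMIs, at 1232 against 673 at 4 h, at 705 against 459.6 at 16 h and at 1078 against 828 at 24 h. The 8 h library did not follow, with 465 CPM at 1000 to 3000 UMIs, 443 at 3000 to 10000 and 632 at 10000 to 30000. The share of hepatocytes under 3000 UMIs was 23.7, 28.1, 10.2, 25.9 and 23.5% at 0, 4, 8, 16 and 24 h. Restricting all libraries to 3000 or more UMIs and 10 to 30% mitochondrial UMIs kept 4835, 3233, 1166, 6109 and 3126 hepatocytes. Under that limit, chosen after seeing the data, the ratios to fed kept their direction for every member but Hfe at 8 h. The Hamp ratios came to -0.60, -0.12, -0.54 and -0.22. Libraries still differed under that limit. In the middle of the 5 axis bins described below, median UMIs were 7689, 19873.5, 18170, 5056 and 15666. Mitochondrial shares there were 12.9, 19.5, 11.2, 13.8 and 17.2%. In the fed library Hamp stood at 725 CPM at 10 to 20% mitochondrial UMIs and at 1455 at 20 to 30%. The part of depth and mitochondrial share in the ratios to fed was not tested.

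**Figure D3:**
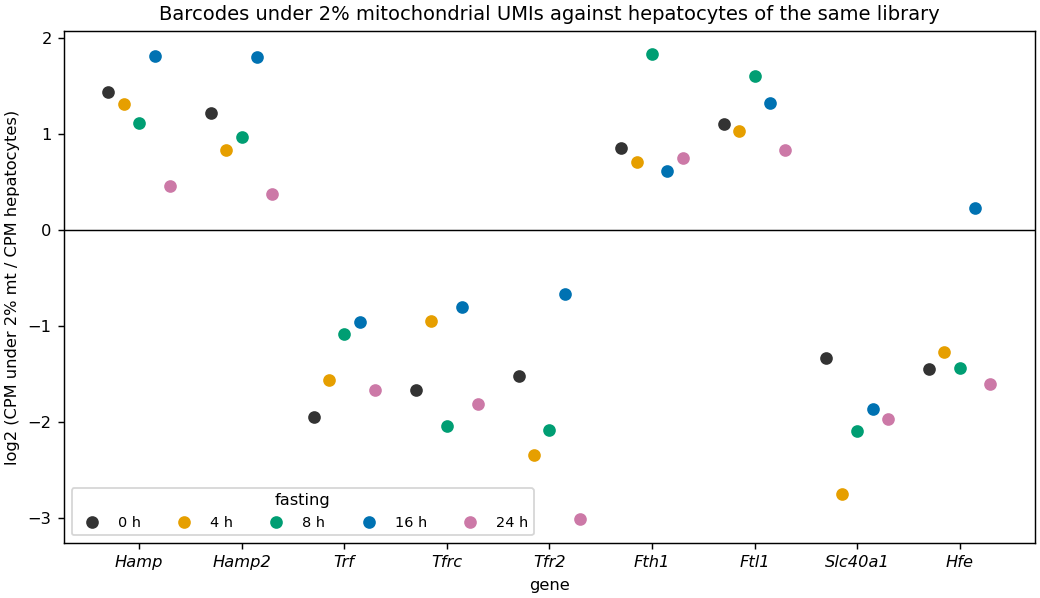
Log2 ratio of CPM in barcodes under 2% mitochondrial UMIs to CPM in hepatocytes of the same library (y axis) for the 9 genes (x axis), 1 point per library coloured by hours of fasting. Hamp, Hamp2, Fth1 and Ftl1 lie above 0 in all 5 libraries, and Trf, Tfrc, Tfr2 and Slc40a1 below it.

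The members were also counted in barcodes of other cell types in the fed library. Doublets were not called, so free RNA, doublets and the cells' own transcripts cannot be told apart there. Thinned to 1000 UMIs each, 42.6% of fed hepatocytes had a Hamp UMI (Clopper-Pearson interval 41.5 to 43.8%; 75.0% unthinned, median 4835 UMIs), but so did 37.0% of 257 endothelial-like barcodes (31.0 to 43.2%; 54.5% unthinned, median 1707 UMIs). For Hamp2 the thinned shares were 6.36% and 5.45%. The fed intervals overlapped for both hepcidin genes. In the fasted libraries the Hamp share stood above that of the few endothelial-like barcodes at 8 h, at 33.8% (32.0 to 35.6%) against 0 of 16 (0 to 20.6%), and at 16 h, at 33.1% (32.1 to 34.0%) against 15.6% of 45 (6.49 to 29.5%). With 7 and 24 such barcodes at 4 h and 24 h, the Hamp share was 36.6% (35.2 to 38.0%) against 28.6% (3.67 to 71.0%) and 39.2% (37.8 to 40.7%) against 20.8% (7.13 to 42.2%), with overlapping intervals. Hamp2 intervals overlapped in all 5 libraries. In the fed library Slc40a1 had 13.5% in hepatocytes and 17.1% in endothelial-like barcodes, Hfe 3.21% and 4.28%, Fth1 91.3% and 97.7%, and Ftl1 93.5% and 97.3%; endothelial cells may express these 4 genes themselves, so their shares give no background level. Tfr2 differed more, with 17.5% of hepatocytes against 1.17% of endothelial-like barcodes, as were Tfrc, with 5.87% against 0.778%, and Trf, with 99.8% against 82.5%. Summed levels in endothelial-like barcodes were 499 CPM for Hamp, 59.0 for Hamp2, 1715 for Trf, 12.6 for Tfr2 and 259 for Slc40a1. Slc40a1 was far higher in 53 macrophage-like barcodes, the cells that recycle iron from red cells, at 2648 CPM (2381 to 2936) against 162 in hepatocytes. Macrophage markers in the hepatocytes gave 0.000639% of UMIs fed and 0.000143% at 16 h, where Slc40a1 was highest; C1qa, for example, stood at 0.776 and 0.209 CPM. Barcodes rich in these same markers had been removed from the hepatocytes, so the low marker values follow in part from that filter. The part of macrophage RNA in the Slc40a1 levels was not tested.

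The axis from Cyp2f2, a gene of hepatocytes near the portal vein, to Cyp2e1, a gene of those near the central vein, was cut into 5 equal bins of hepatocytes in each library. Hamp was higher at the Cyp2e1 end in all 5 libraries. From the Cyp2f2 end to the Cyp2e1 end, fed Hamp stood at 544 and 1489 CPM. The 4 h library gave 369.9 and 714, the 8 h library 353 and 1007, the 16 h library 395 and 637, and the 24 h library 612 and 1248. The log2 ratios of the Cyp2f2 end to the Cyp2e1 end were -1.45, -0.95, -1.51, -0.69 and -1.03. Hamp2 had the same direction in all 5 libraries, with log2 ratios of -0.80, -1.01, -1.27, -0.34 and -0.95. Within the Cyp2e1-end bin, the Hamp log2 ratios to fed at 4, 8, 16 and 24 h were -1.06, -0.56, -1.22 and -0.25. Within the Cyp2f2-end bin they were -0.56, -0.62, -0.46 and 0.17 (0.11 to 0.23), so at 24 h that end lay above fed. The bins were set within each library and are not matched between times.

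The ends of the axis differed in depth, most at 4 h and 24 h, where the restricted set of hepatocytes brought them closer. In all hepatocytes, median UMIs at the Cyp2f2 and Cyp2e1 ends were 16992 and 5634 at 4 h and 10123 and 2818 at 24 h. At 24 h the mitochondrial share was 19.45% at the Cyp2f2 end and 9.42% at the other, and 18.4% of barcodes in the last bin had no UMI of either axis gene. With 3000 or more UMIs and 10 to 30% mitochondrial UMIs, the medians became 16786 and 14384 at 4 h and 9875 and 8482 at 24 h. The 16 h ends, at 3891 and 4072 in all hepatocytes, came no closer, at 4647 and 5047. Hamp stayed higher at the Cyp2e1 end in all 5 libraries, with log2 ratios of -1.21 (-1.27 to -1.14), -0.85 (-0.91 to -0.78), -1.49 (-1.59 to -1.40), -0.81 (-0.90 to -0.73) and -0.54 (-0.60 to -0.48). Hamp2 did too, from -0.38 at 16 h to -0.93 at 8 h. The steps were not even: in the restricted fed library, Hamp stood at 547, 581, 479.8, 611 and 1262 CPM from bin 1 to bin 5, and at 24 h at 687, 428, 475, 501 and 998. Depth was uneven in the same bins, with median UMIs of 5836, 7014, 7689, 7296 and 5905 fed and 9875, 13853, 15666, 15118 and 8482 at 24 h, so at 24 h the shallower end bins were also those with more Hamp. The part of depth in these steps was not tested.

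Trf and Slc40a1 ran against the hepcidin genes. Trf was higher at the Cyp2f2 end in all 5 libraries, with log2 ratios of 0.45, 0.42, 0.29, 0.32 and 0.63, and 0.25 to 0.36 in the restricted set. Slc40a1 at the Cyp2f2 and Cyp2e1 ends stood at 171 and 111 CPM fed. In the 4, 8 and 24 h libraries the pairs were 172 and 95.7, 158 and 112, and 238 and 133. At 16 h, the library of its highest level, Slc40a1 stood at 305 CPM at the Cyp2f2 end and 287 at the Cyp2e1 end, and the interval of that ratio (-0.00 to 0.18) included 0. The restricted set gave Slc40a1 ratios of 0.36, 0.73, 0.52, 0.07 and 0.36.

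Tfrc did not keep one direction along the axis. At 4 h it went from 19.6 CPM at the Cyp2f2 end to 43.5 at the Cyp2e1 end. At 16 h it went the other way, from 26.7 to 13.5 CPM, and at 24 h from 32.2 to 16.0. In the restricted set the 4 h log2 ratio was -1.22 (-1.497 to -0.94), the 16 h ratio 0.85 (0.43 to 1.27) and the 24 h ratio 0.36 (0.03 to 0.69). The fed and 8 h intervals of that set included 0. Tfr2 was somewhat higher at the Cyp2e1 end at 0, 4, 8 and 16 h (log2 ratios -0.19, -0.22, -0.19 and -0.35). It was higher at the Cyp2f2 end at 24 h (0.66, and 0.18 in the restricted set). With no lower mitochondrial limit Tfr2 turned to the Cyp2f2 end fed (198.6 against 187.2 CPM) and at 4 h (278.3 against 259.6). With 2 to 15% it did so at 4 h (241.7 against 190.8). In the Cyp2e1-end bin at 24 h, the Tfr2 log2 ratio to fed was -0.12 (-0.25 to 0.01). In all hepatocytes the ferritin genes were higher at the Cyp2e1 end at 0, 4, 8 and 24 h, most at 24 h, where Fth1 had a log2 ratio of -0.67 and Ftl1 of -0.69, or -0.48 and -0.43 in the restricted set. At 16 h Fth1 and Ftl1 had ratios of -0.06 and 0.12. In the restricted set Fth1 had -0.21 fed, -0.41 at 4 h, -0.02 (-0.05 to 0.01) at 8 h and -0.04 at 16 h, and Ftl1 had -0.03, -0.25, -0.18 and 0.18, so fed Ftl1 and 8 h Fth1 were close to level there. Hfe intervals in the restricted set included 0 at 0, 8, 16 and 24 h.

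**Figure D4:**
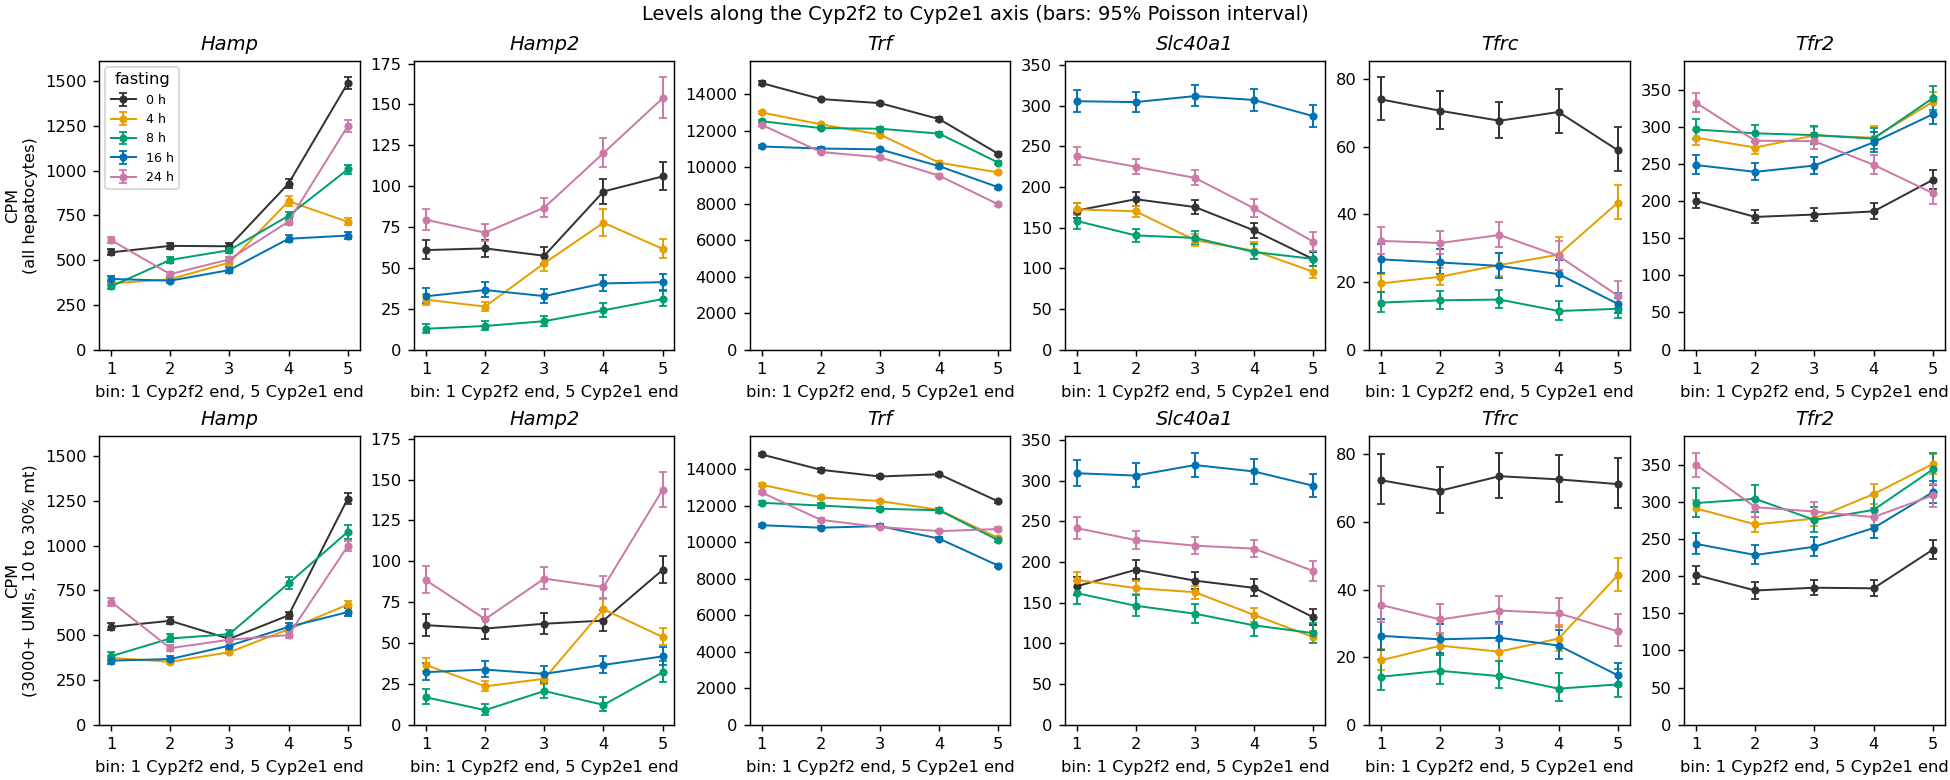
Levels (CPM, y axis from 0) of 6 genes over 5 bins of the axis, from the Cyp2f2 end (bin 1) to the Cyp2e1 end (bin 5), 1 line per library with 95% Poisson intervals; the top row holds all hepatocytes and the bottom row those with 3000 or more UMIs and 10 to 30% mitochondrial UMIs. Hamp is highest in bin 5 of the fed library (1489 CPM, or 1262 in the bottom row), and within the 4 h library Tfrc is highest in bin 5 (43.5 CPM), within the 16 h library lowest there (13.5 CPM), with every fed bin above both (59.0 CPM or more).

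Counted by the same 2-fold rule between the ends, Hamp passed at 0 h (1 member, where 2.75% of 7226 genes passed in either direction), Hamp2 and Tfrc at 4 h (4.17% of genes), Hamp and Hamp2 at 8 h (3.17%), no member at 16 h (4.11%) and Hamp and Tfrc at 24 h (9.54%). In the restricted set Hamp passed at 0 h (2.15% of genes), Tfrc at 4 h (3.99%) and Hamp at 8 h (3.48%), so Hamp2 passed at neither 4 h nor 8 h. No member passed there at 16 h (4.1% of genes) or at 24 h (0.999%).

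The genes that control hepcidin differed from fed in both directions. Of the 24 genes listed for the BMP and SMAD arm, 23 were found under the listed symbol and 19 reached 10 CPM in any library. At 4, 8, 16 and 24 h, 17, 18, 18 and 17 of them could be tested, of which 0, 2, 2 and 0 were at least 2-fold higher than fed and 3, 6, 0 and 5 lower. The shares over all genes at these times were 3.81, 5.82, 3.02 and 4.89% higher and 5.8, 11, 3.5 and 8.57% lower. Their median log2 ratios were -0.25, -0.45, 0.20 and -0.40, against -0.08, -0.07, -0.01 and -0.09 over all genes tested. Id1, a direct SMAD target, stood at 2.11, 3.36, 3.64, 20.2 and 2.48 CPM, highest at 16 h, where Hamp was at its lowest together with 4 h. Id3, another SMAD target, stood at 60.6, 33.1, 21.5, 70.2 and 13.4. Atoh8, a transcription factor that acts on hepcidin, stood at 3.96, 8.92, 18.7, 8.85 and 8.46, and Fst, which encodes the activin antagonist follistatin, at 13.5, 3.43, 3.08, 21.7 and 2.56.

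In the IL-6 and STAT3 arm, listed with fasting transcription factors, all 11 genes were expressed and tested; 3, 3, 0 and 2 were higher than fed, where 3.81, 5.82, 3.02 and 4.89% of all genes were, and 1 at each time was lower, where 5.8, 11, 3.5 and 8.57% were. The lower one was Socs3, the feedback inhibitor that STAT3 induces, at 31.5 CPM fed and 7.67, 1.89, 12.6 and 2.19 in the fasted libraries. Il6ra, the IL-6 receptor gene, stood at 40.9, 135, 138, 68.9 and 115 CPM. Foxo1 stood at 28.9, 80.9, 96.0, 34.2 and 70.0, and Ppargc1a, the coactivator of gluconeogenic genes, at 24.2, 56.1, 35.4, 37.4 and 40.4. The 16 h library was thus the fasted library nearest to fed for Il6ra, Foxo1 and Socs3.

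Among 21 partners of iron uptake, storage and export, 20 were expressed and 20, 19, 19 and 19 tested at 4, 8, 16 and 24 h. Of these 1, 1, 1 and 0 were higher and 2, 4, 1 and 3 lower, against shares over all genes of 3.81, 5.82, 3.02 and 4.89% higher and 5.8, 11, 3.5 and 8.57% lower; several of these counts lie near the background. Steap4, a metalloreductase, was lower at all 4 times, at 214 CPM fed and 88.9, 42.5, 62.6 and 53.2. Pcbp1, a chaperone that hands iron to ferritin, stood at 474, 179, 176, 342 and 150.5. Slc25a37, the mitochondrial iron importer mitoferrin 1, stood at 68.8, 42.3, 18.2, 43.5 and 30.01. Scara5, a ferritin receptor, was seen mainly at 4 h and 8 h, at 16.4 and 18.3 CPM against 2.19 fed, 1.02 at 16 h and 0.507 at 24 h. Of 17 heme genes, 13 were expressed and tested, and 0, 1, 0 and 0 were higher and 1, 2, 1 and 1 lower, counts close to what the same shares over all genes give for so few genes. Alas1, the rate-limiting enzyme of heme synthesis, stood at 361, 221, 98.4, 161 and 316 CPM. The heme oxygenase genes parted: Hmox1 stood at 11.3, 5.27, 4.67, 10.97 and 2.35 and Hmox2 at 23.3, 36.3, 61.0, 32.9 and 37.9.

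Hamp is itself classed as an acute-phase gene, and several acute-phase genes of the liver covered a far wider range. Saa1, a major acute-phase protein of the mouse, stood at 386, 1148, 37.9, 4888 and 21.1 CPM at 0, 4, 8, 16 and 24 h. Saa3 stood at 239 CPM at 16 h and between 3.63 and 6.58 in the other libraries, and Lcn2 at 287 at 16 h against 10.8 fed. Of 12 listed acute-phase genes, 11, 11, 12 and 11 were tested at 4, 8, 16 and 24 h. Higher than fed were 3, 0, 6 and 0 of them, where 3.81, 5.82, 3.02 and 4.89% of all genes were, and lower were 0, 4, 0 and 5, where 5.8, 11, 3.5 and 8.57% were. Hamp was below fed at 16 h, where these genes were highest, and at 24 h, where Saa1 and Saa2 were lowest.

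Within the 16 h library, hepcidin levels differed between hepatocytes of low and high acute-phase content. Hepatocytes were put into 5 equal bins by the summed UMI share of Saa1, Saa2, Saa3, Lcn2, Orm1 and Orm2, which was 0.0727, 0.171, 1.1004, 1.83 and 2.61% from bin 1 to bin 5. Hamp2 stood at 76.9, 72.1, 24.2, 9.83 and 7.83 CPM over these bins. Bins 1 and 2 thus held Hamp2 near the fed level of 73.3, and bins 3 to 5 below it. Hamp stood at 651, 654, 369, 353 and 468 CPM, and Slc40a1 at 264, 272, 328, 339 and 305. Median UMIs per bin were 4439, 4195, 4046, 5155 and 4081 and median mitochondrial shares 16.1, 16.0, 13.1, 11.96 and 12.3%; the part of the latter in the result was not tested. With 3000 or more UMIs and 10 to 30% mitochondrial UMIs, Hamp2 stood at 73.2, 70.8, 23.8, 8.51 and 7.51 CPM. Hamp stood there at 626, 604, 377, 344 and 431. Mitochondrial shares still differed between these bins, at 15.9, 15.9, 13.8, 12.4 and 12.5%. Over all 16 h hepatocytes Hamp2 stood at 16.2, 37.3 and 63.4 CPM at 5 to 10, 10 to 20 and 20 to 30% mitochondrial UMIs. All of these hepatocytes come from 1 library, and whether the bins hold cells of different animals cannot be told from the sources used here.

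Hamp2 did not show that order in the other libraries. From the lowest to the highest bin Hamp2 stood at 72.7 and 92.8 CPM fed and at 40.3 and 67.0 at 4 h, with a median of 2551 UMIs in the last of these; in the restricted set the 4 h values were 42.4 and 46.5. Hamp was higher in the top bin than in the bottom one in the fed library (926 against 792 CPM) and at 4 h (854 against 443), with log2 ratios of top to bottom of 0.23 (0.17 to 0.28) and 0.95 (0.88 to 1.01). In the restricted set Hamp stood at 879 against 626 CPM fed and at 595 against 453 at 4 h, so the gap was wider fed and narrower at 4 h. Hamp at 8 h was lower toward the top bins, as at 16 h: it stood at 788, 662, 581, 501 and 525 CPM, a log2 ratio of the top to the bottom bin of -0.59 (-0.65 to -0.52) against -0.48 (-0.54 to -0.41) at 16 h. Hamp2 at 8 h stood at 17.9 and 17.7 CPM in the bottom and top bins. At 24 h both were highest in the top bin, Hamp at 1171 against 497 CPM and Hamp2 at 182 against 63.0. The top bin at 24 h was shallow, with a median of 3678 UMIs against 9486, and in the restricted set Hamp stood at 1152 against 469 and Hamp2 at 177 against 64.2, though median UMIs still differed there, at 7243 against 13838. The part of depth in this difference was not tested. The acute-phase share of the top bin was 2.61% at 16 h but 0.246% at 24 h and 0.170% at 8 h, so the bins are not matched between libraries.

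**Figure D5:**
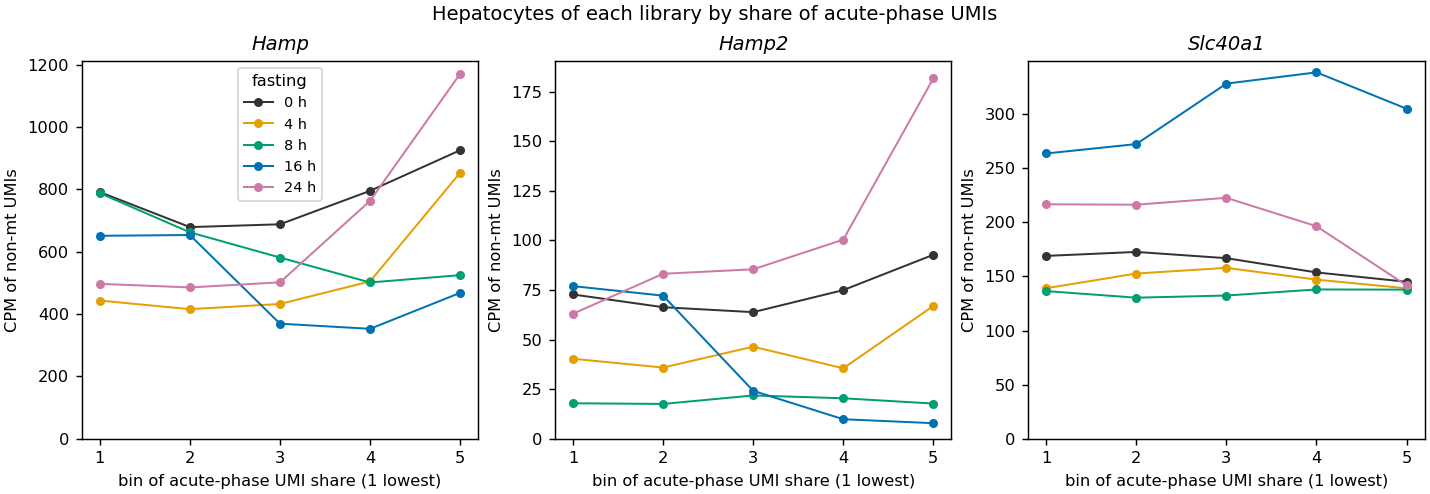
Levels (CPM, y axis from 0) of Hamp, Hamp2 and Slc40a1 in 5 equal bins of hepatocytes ordered by acute-phase UMI share (x axis), 1 line per library. At 16 h Hamp2 goes from 76.9 to 7.83 CPM across the bins, while at 24 h it goes from 63.0 to 182.

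Genes whose levels ran most like a member's were sought over 25 sums (5 bins of the axis in 5 libraries) among 2674 genes with a mean of 50 CPM or more. The sums of a library share its depth and its animals, so the correlations are a description. Fggy (Pearson r of log2 CPM 0.88), Cst3, Dad1, Cyp7a1 (0.79), which encodes the first enzyme of bile acid synthesis, and Mettl26 were nearest to Hamp. For Trf they were the complement gene C2 (0.95), Cyp4v3, Lsr, Serpind1 and the metal importer gene Slc39a14 (0.86). Among those nearest to Tfr2 were C2cd2 (0.92), Setd3 (0.90) and Ttpa (0.88).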

How the data were processed

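RNA of isolated mouse hepatocytes was counted by droplet 3′ sequencing in 5 libraries. The authors deposited 1 table of raw UMI counts per gene and barcode, 10000 barcodes per library, made with Cell Ranger 6.0.1 on mm10, per the file headers and the submitters' processing notes; a barcode table gives each barcode's library. Reads, filters before deposit and the gene annotation version are not given in the sources used here.

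Each barcode was assigned to its time by that table. Barcodes with 3 or more markers of another cell type reaching 0.5% of UMIs (5% for hemoglobin genes) were removed; doublets were not called. Counts were summed per library and divided by non-mitochondrial UMIs. Poisson, conditional binomial (ratios) and Clopper-Pearson (shares) intervals at the 95% level cover counting error only. UMIs are molecules, but cells of 1 library are not replicates, so no p-value was computed. The axis score was the log2 ratio of Cyp2f2 to Cyp2e1 UMIs per 10000, each plus 1. Names came from GENCODE M21 and RefSeq tables. Beside the 9 members, up to 4 called genes per list, those with the largest ratio to fed, were named, and 5 genes per likeness search, not all of which are reported here. The script was tested on simulated data. Marker shares in hepatocytes were taken after barcodes had been removed by the lists of other cell types, which lowers those shares in part. Endothelial, macrophage, stellate, lymphoid and neutrophil marker lists each held at most 0.002102% of UMIs in any library. Cholangiocyte markers held at most 0.007615% (mainly Sox9), erythroid markers at most 0.006705% and hepatocyte markers 8.67 to 11.7%. The members and lists were chosen with earlier results of these data known. Python 3.11.15, numpy 2.4.6, scipy 1.17.1, R 4.3.3 and edgeR 4.0.16 (TMM scaling as an alternative) were used.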

Additional observations from a re-analysis of the deposited data

Results flagged for a closer look

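Some members differed from fed, or between the ends of the axis, in opposite directions at different times, with counting intervals that excluded 0 and log2 ratios of at least 0.3 either way. With 1 library per time, the difference between times was not tested.

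Between the ends of the axis (positive: higher at the Cyp2f2 end), the log2 ratio of Tfrc was 0.33 fed, -1.15 after 4 h, and 0.98 and 1.01 after 16 and 24 h. Tfr2 had -0.35 at 16 h and 0.66 at 24 h, and Hfe had -0.30 at 8 h and 0.46 at 24 h. In the set of 3000 or more UMIs and 10 to 30% mitochondrial UMIs, the intervals included 0 for Tfrc fed (0.02, -0.19 to 0.23) and for Hfe at both times, and the 24 h ratios were 0.36 for Tfrc and 0.18 for Tfr2.

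Against fed, Hamp2 had log2 ratios of -0.78, -1.94 and -1.001 at 4, 8 and 16 h and 0.35 at 24 h. Fth1 had 0.60, 0.67 and 1.02 at 4, 8 and 24 h and -0.32 at 16 h. Ftl1 had 0.54, 0.61 and 0.89 at 4, 8 and 24 h and -0.97 at 16 h. These comparisons share the fed library.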

How the results depend on the processing

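Of 172 recomputed counts of members past 2-fold, 136 stayed within 1.5 times the main count. A count of 3 in place of 2 falls within that limit. The number lower than fed at 16 h ran from 1 to 3 over the alternatives. So did the number between the axis ends at 4 h. Ftl1 at 16 h reached a log2 ratio to fed of -1.10 in 1 alternative. The number lower than fed at 16 h came to 1 (Tfrc) in place of 2 with median-of-ratios scaling, with other cell types kept, without the top 5% of UMIs, with 5 to 30% mitochondrial UMIs and with 10 to 30% and 3000 UMIs. The number higher at 24 h came to 2 (Fth1 and Ftl1) in place of 1 (Fth1) with median-of-ratios scaling, no lower mitochondrial limit and 2 to 15%. It came to 0 without genes over 1% in the denominator, at 3000 UMIs, at 5 to 30% and at 10 to 30% with 3000 UMIs. The mean of per-cell CPM put 1 gene (Slc40a1) higher at 16 h in place of 0. Between the axis ends the number came to 2 in place of 1 at 0 h with no lower limit and with the landmark score. At 4 h it came to 1 in place of 2 at 3000 UMIs, at 5 to 30%, at 10 to 30% with 3000 UMIs and with 9 bins. At 8 h it came to 1 in place of 2 at 10 to 30% with 3000 UMIs, with the landmark score and with 3 bins. At 16 h it came to 1 (Tfrc) in place of 0 at 2 to 15%, without the top 5% of UMIs and on thinned cells. At 24 h, in place of 2, it came to 5 with no lower limit and 6 at 2 to 15%. It came to 1 there with other cell types kept, without the top 5%, at 5 to 30% and with 3 bins, and to 0 at 3000 UMIs, at 10 to 30% with 3000 UMIs, on thinned cells, with 9 bins and without cells lacking an axis UMI. The causes were not tested. Of 36 ratios to fed under 12 alternatives each, 3 of 432 values changed sign: Hamp and Hfe at 4 h with 2 to 15% and Hfe at 8 h with 10 to 30% and 3000 UMIs. Of 45 end-to-end ratios, 10 of 540 values changed sign, all of them of Tfr2, Tfrc or Hfe. None were of Hamp, Hamp2, Trf, Slc40a1, Fth1 or Ftl1, and no value past 2-fold changed sign. Hamp between the ends ranged from -1.88 to -0.54 at 24 h and from -1.69 to -1.21 fed. The middle of the axis against its ends changed sign in 73 of 540 values. TMM scaling moved the median log2 ratio of all genes from -0.08 to 0.04 at 4 h, from -0.07 to 0.10 at 8 h and from -0.09 to 0.01 at 24 h; median-of-ratios scaling moved it to 0.03, 0.10 and 0.04. Alternatives at 10 to 30% with 3000 UMIs and at 5 to 30% were chosen after seeing the data. No paired analysis was possible because each time is 1 library.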
